A study of Mus musculus with 3 samples.

Results

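Orphan and adhesion G protein-coupled receptor genes were examined in group 2 innate lymphoid cells (ILC2s), tissue lymphocytes that lack rearranged antigen receptors and make type 2 cytokines. The members are all genes of the count table whose mouse symbol starts with Gpr and a digit, or with Adgr, with Gpr183 left out. This rule gave 102 of 27179 genes, of which 75 carry a Gpr symbol and 27 an Adgr symbol. The cells came from 3 wild-type C57BL/6 mice with 1 RNA sequencing library each, and there is no second genotype, treatment or time. The sort required KLRG1, CD127, CD90.2 and CD45 and the absence of a panel of T cell, NK cell, myeloid and B cell antigens. The sources used here give no tissue, age, sex or hour of collection, so the values describe a single population and no contrast between conditions was possible.

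G protein-coupled receptors cross the membrane with 7 helices and, once bound by a ligand, activate a heterotrimeric G protein made of an alpha, a beta and a gamma subunit. Gs proteins raise cyclic AMP, Gi proteins lower it, Gq proteins release calcium and G12/13 proteins act on the cytoskeleton. Gpr symbols were given to receptors whose ligand was unknown when they were cloned. Several now have accepted ligands such as protons or lysophospholipids, and others turned out to be proteins of the Golgi apparatus or the lysosome. Adhesion receptors carry long extracellular domains that bind other cells or matrix, and many are cut by autoproteolysis next to the membrane and carry a tethered agonist. ILC2s are known to respond to neuropeptides and lipids through receptors of this superfamily.

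The libraries, called mouse 1, 2 and 3 after the number in their titles, held 22112425, 17819551 and 26374248 counts. Levels are CPM, counts per 1000000 counts of a library, on library sizes normalised with the TMM method of edgeR. Where genes are compared with each other, CPM were divided by the summed exon length in kb. A count of 0 allows up to 3 counts, or 0.132, 0.171 and 0.115 CPM in mice 1, 2 and 3, for counting error only. All 10 fixed ILC2 markers were detected, meaning 1 CPM or more in every library, and their summed level was 8187 to 10383 CPM. Of the ILC3 markers 5 of 8 were detected at a summed level of 1285 to 1514 CPM, with Ccr6 at 0. Of the myeloid markers 3 of 10 were detected, with a summed level of 27.8 to 45.7 CPM and Adgre1 and S100a8 at 0. Of the B and plasma cell markers 6 of 10 were detected at a summed level of 12263, 34006 and 62305 CPM in mice 1, 2 and 3, with Ms4a1 and Pax5 at 0. Of the T cell markers 6 of 9 were detected, at a summed 1625 to 1781 CPM that came mostly from Trbc1, Trbc2 and Cd3g. Of the NK cell and ILC1 markers 3 of 8 were detected, at a summed 38.5, 258 and 82.7 CPM in mice 1, 2 and 3, with Gzma the main contributor in mice 2 and 3.

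The receptor genes were few and unequal in these cells. Of the 102 members 13 were detected, which is 12.7% of them, against 31.1% of all genes in the table. Another 17 reached 1 CPM in some libraries only, 11 had counts but stayed under 1 CPM in each library, and 61 had 0 counts in every library. These 61 make up 59.8% of the members, against 44.5% of all genes. Of the Adgr genes 3 of 27 were detected and of the Gpr genes 10 of 75. A single gene, Gpr65, held 75%, 76.3% and 68.5% of the summed CPM of all members in mice 1, 2 and 3. The 5 highest members, Gpr65, Gpr171, Gpr132, Gpr34 and Adgre5, together held 94.7% ± 2.55 (SD, n = 3), and the same 5 led after division by length with 96.7% ± 1.92. Adhesion receptors accounted for 2.72% ± 0.419 of the summed CPM and for 1.44% ± 0.223 of the summed CPM per kb.

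**Figure D1:**
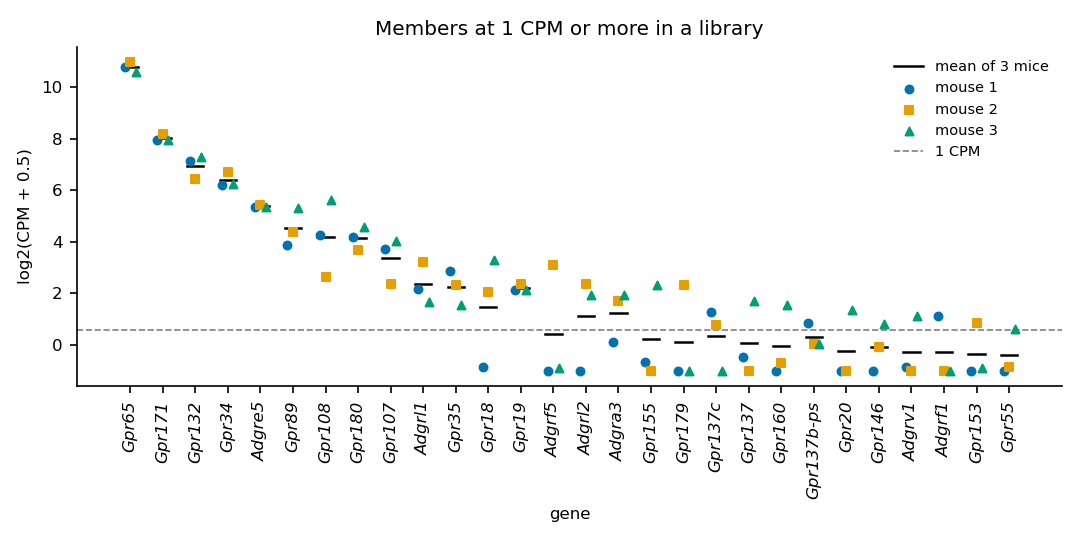
The log2(CPM + 0.5) of 28 of the 30 members that reached 1 CPM in a library is plotted by gene, with 1 symbol per mouse, a bar at the mean of 3 mice and a dashed line at 1 CPM. Gpr65 stands at a mean of 10.78 on this scale, and from Gpr18 to the right many genes have 1 mouse well above the line and another at or near 0 counts.

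The proton-sensing receptors are the group with the highest summed level and also hold a member without counts, so the sequences upstream of their start sites are shown for comparison. The windows are the 250 bases before an annotated start site, from RefSeq on GRCm38.p6. Those of Gpr65 and Gpr4 adjoin the gene's outer end, whereas that of Gpr132 lies inside the gene's span (112850873 to 112868416 on chromosome 12), at an internal start site. Gpr65, Gpr132 and Gpr4 are printed. Capitals mark matches, on either strand, to 3 motifs: GATAA, the core bound by GATA factors (read as TTATC on the other strand), AGGTCA, the hexamer bound by ROR proteins and other nuclear receptors (TGACCT on the other strand), and TGACGTCA, the cyclic AMP response element, which is its own reverse complement. AGGTCA and TGACGTCA share letters but neither contains the other.
Gpr65 (chr12:98268385-98268634, + strand): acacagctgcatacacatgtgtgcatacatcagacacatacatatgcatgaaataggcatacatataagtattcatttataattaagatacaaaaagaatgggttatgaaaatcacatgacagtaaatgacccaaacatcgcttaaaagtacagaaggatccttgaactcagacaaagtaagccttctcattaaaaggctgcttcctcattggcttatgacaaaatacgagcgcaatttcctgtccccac
Gpr132 (chr12:112860917-112861166, - strand): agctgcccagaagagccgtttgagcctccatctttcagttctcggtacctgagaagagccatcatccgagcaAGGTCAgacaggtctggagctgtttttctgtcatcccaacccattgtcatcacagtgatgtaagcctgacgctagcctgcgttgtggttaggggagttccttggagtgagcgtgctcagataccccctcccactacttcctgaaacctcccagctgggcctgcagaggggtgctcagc
Gpr4 (chr7:19212288-19212537, + strand): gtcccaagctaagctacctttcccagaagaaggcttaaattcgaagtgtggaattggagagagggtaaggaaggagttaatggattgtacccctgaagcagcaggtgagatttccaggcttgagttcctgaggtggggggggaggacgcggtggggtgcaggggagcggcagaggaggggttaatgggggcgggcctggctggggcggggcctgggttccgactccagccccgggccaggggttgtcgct
Gpr132 had 1 match, to AGGTCA, and the windows of Gpr65 and Gpr4 had none. Among 32851 such windows GATAA was present in 22.6%, AGGTCA in 14% and TGACGTCA in 1.55%. Of the 10 detected members with a window 1 held GATAA, 2 held AGGTCA and 0 held TGACGTCA. A member was counted if any of its windows matched, whereas the percentages are per window, so the figures differ in unit. The window of Gpr65 had a GC content of 36.8%, that of Gpr132 55.6% and that of Gpr4 61.2%, where the quartiles of all windows were 45.2%, 52.4% and 61.2%. These matches describe letters only, and which start site the cells use cannot be read from gene counts.

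Gpr65 (TDAG8), a receptor that senses extracellular protons and raises cyclic AMP through Gs, was by far the most abundant member. Its gene lies on chromosome 12 (98268635 to 98276722, mm10). It had 40298, 35228 and 40101 counts in mice 1, 2 and 3, or 1778, 2004 and 1538 CPM. The 3 mice lay close together, with a coefficient of variation of 13.1%. By CPM it ranked 60, 57 and 84 among all genes of the table in mice 1, 2 and 3, and per kb it ranked 72, 70 and 94. Its level per kb was 857 ± 113 CPM (SD, n = 3).

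Gpr132, a relative of Gpr65 that is grouped with the proton sensors and also responds to oxidised fatty acids, had 3198, 1518 and 4071 counts in mice 1, 2 and 3. This corresponds to 141, 86.3 and 156 CPM, with mouse 2 below the others. Per kb Gpr65 was 16.5, 30.5 and 12.9 times as high as Gpr132 within mice 1, 2 and 3. Gpr4, the proton sensor best known from endothelium, had 0 counts in every library. Within this group the levels thus ran from one of the highest transcripts of the cells to none detectable at this depth.

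The P2Y-like and lipid receptors supplied the next most abundant members. Gpr171, which is related to the P2Y nucleotide receptors and has been assigned a neuropeptide ligand, had 245, 290 and 249 CPM in mice 1, 2 and 3. The 3 values had a coefficient of variation of 9.45%. The gene lies on chromosome 3 (59096448 to 59101821, mm10) within the span of Med12l, which runs on the opposite strand and shares 0 exonic bases with it. Med12l itself had only 79, 27 and 101 counts.

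Gpr34, a receptor for lysophosphatidylserine, had 73.9, 103 and 75.4 CPM in mice 1, 2 and 3, with mouse 2 highest. It lies on the X chromosome (13622650 to 13640859, mm10) within the span of Cask, with 0 exonic bases shared. The neighbouring member Gpr82, whose gene starts 5274 bases further on, had 0 counts in every library. Gpr174, another receptor for lysophosphatidylserine known from lymphocytes, had 1 count in mouse 1 and 0 in the others. Per kb Gpr171 was 3.12, 2.63 and 3.10 times as high as Gpr34 in mice 1, 2 and 3. Both genes therefore kept a steady ratio, the standard deviation of its log2 being 0.14.

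Gpr35, a receptor for tryptophan metabolites that is best known from gut epithelium and myeloid cells, was detected at 6.75, 4.55 and 2.45 CPM in mice 1, 2 and 3. Of the epithelial markers 1 of 8 was detected, and their summed level was 29.4, 9.78 and 25.8 CPM, with Cdh1, Fabp2, Krt20 and Muc2 at 0. Epcam alone made up the sum in mice 1 and 3, whereas Krt18 (4.21 CPM) and Vil1 (1.82 CPM) had counts in mouse 2 only. The myeloid markers have been given above, and the part of either cell type in the Gpr35 counts was not tested. Gpr18, a receptor found in many lymphocytes whose lipid ligand is disputed, was uneven, with 1, 64 and 241 counts. It lies 36442 bases from Gpr183 on chromosome 14, within the span of Ubac2, with which it shares 0 exonic bases. Ubac2 had 45.7, 47.7 and 56.8 CPM, against 0.0441, 3.64 and 9.24 CPM of Gpr18, and the part of its reads in the Gpr18 counts was not tested. The summed B and plasma cell markers were lowest and highest in the same mice as Gpr18, and their part in the Gpr18 counts was not tested. In bulk RNA of sorted cells, fewer cells that carry a transcript and less of it per cell cannot be told apart. Gpr55, a lysophosphatidylinositol receptor, had 0, 1 and 27 counts, Gpr20 had 0, 0 and 53, and Gpr17 had none.

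Adhesion receptors were represented by 3 detected genes. Adgre5 (CD97), a leukocyte receptor that binds CD55 and CD90, was the highest of them at 40.2, 42.8 and 40.7 CPM in mice 1, 2 and 3. Its coefficient of variation of 3.28% was the lowest of the detected members. The gene lies on chromosome 8 (83723245 to 83741311, mm10), and 895 of its 3757 exonic bases also belong to Ddx39a on the opposite strand. Ddx39a had 4098, 1813 and 5099 counts, and because the libraries do not mark strand, reads of the shared bases cannot be told apart. Per kb Adgre5 lay far below Gpr65, which exceeded it by 80.2, 85.1 and 68.6 times in mice 1, 2 and 3. Of its partners, Thy1 (CD90, a marker of the sort) had 38.1, 25.5 and 21.1 CPM and Cd55 had 0.838, 4.21 and 3.72 CPM.

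Adgrg1 (GPR56), known from cytotoxic lymphocytes, had 0 counts in every library. Adgrg3 (GPR97), a granulocyte receptor whose gene lies 2904 bases from Adgrg1, had a single count in mouse 3. Adgrl1 (latrophilin-1), which binds teneurins and FLRT proteins, had 4.01, 8.87 and 2.68 CPM in mice 1, 2 and 3 and was the lowest detected member per kb.

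The other adhesion receptors stayed under 1 CPM in at least 1 mouse. Adgrl2 (latrophilin-2) had 0, 82 and 88 counts in mice 1, 2 and 3. Adgra3 (GPR125) had counts in all mice, at 13, 48 and 88, and stayed under 1 CPM in mouse 1. Adgrf5 (GPR116), known from lung epithelium and endothelium, had 0, 143 and 1 counts, whereas its neighbour Adgrf1 on chromosome 17 had 38, 0 and 0. The endothelial genes Cdh5, Kdr and Adgrl4 had 0 counts in every library. Pecam1, another endothelial marker, was detected at 36.4, 19.7 and 17.7 CPM in mice 1, 2 and 3. The stromal and endothelial markers were detected in 2 of 8 cases and had a summed level of 39.7, 22.7 and 64.9 CPM in mice 1, 2 and 3, of which Acta2 made up 41.6 CPM in mouse 3. The epithelial markers Krt18 and Vil1 had counts in mouse 2 only, as given above. The part of either cell type in the Adgrf5 counts was not tested. Adgrv1, the very large receptor of sensory hair cells, had 1, 0 and 43 counts. Adgre1, which encodes the macrophage antigen F4/80, had 0 counts, and Adgre4 of the same subfamily had 0, 1 and 5. The 3 brain receptors of the Adgrb subfamily had 0 counts in every library.

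**Figure D2:**
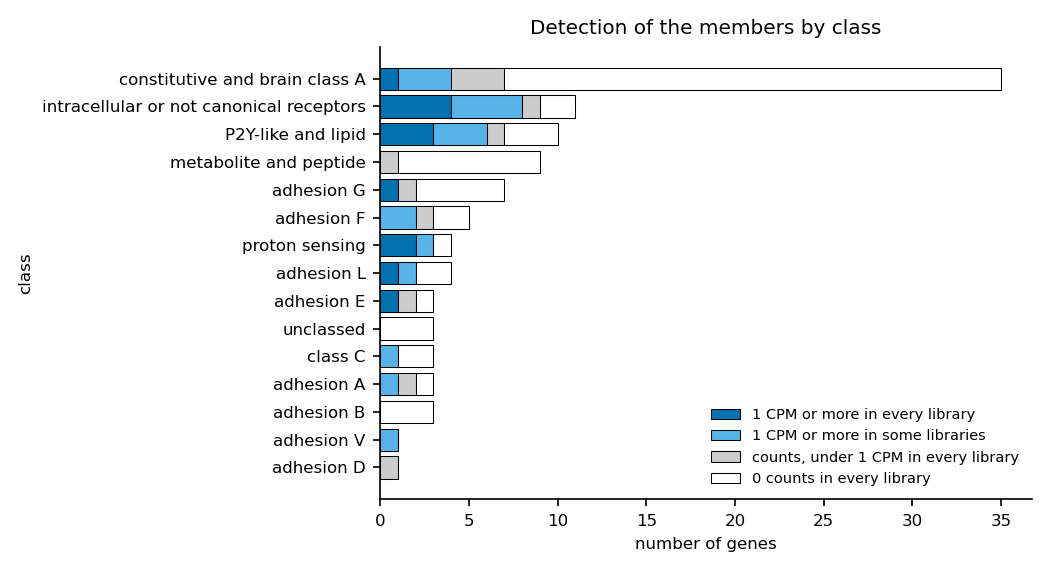
The number of genes in each class of members is shown as stacked bars, divided by detection, with the letter after adhesion giving the Adgr subfamily. The class of constitutively active and brain receptors holds 35 genes, of which 28 had 0 counts, where 44.5% of all genes had 0 counts. The intracellular class has the most detected genes by number, 4 of 11, where 31.1% of all genes were detected.

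Members whose products are intracellular or are not canonical receptors were the class with the most detected genes by number, among classes of unlike size. Of 11 such genes 4 were detected, where 31.1% of all genes in the table were. The summed level of the 11 was 67.1, 45.0 and 135 CPM in mice 1, 2 and 3. Gpr89, which encodes the Golgi pH regulator, an anion channel, had 14.3, 20.5 and 38.9 CPM. Gpr108, a Golgi protein of the same family as Gpr107, had 18.9, 5.69 and 48.6 CPM, the widest range among the detected members at 8.55-fold. Gpr107 had 12.5, 4.66 and 16 CPM and Gpr180 17.7, 12.5 and 23.3 CPM. Gpr107, Gpr108 and Gpr180 were each lowest in mouse 2, the library with the fewest counts, and highest in mouse 3, the library with the most. Whether depth or another property of the libraries had a part in this was not tested.

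Of the 7 other genes of this class, 3 had 20 or more counts in 1 mouse and none in another. Gpr155, which encodes a lysosomal cholesterol sensor, had 3, 0 and 119 counts in mice 1, 2 and 3. The lysosomal protein genes Gpr137 and Gpr137c had 5, 0 and 73 counts and 44, 21 and 0 counts. Gpr137 shares 524 exonic bases with Bad on the opposite strand, whose counts were 652, 777 and 760. The transcribed pseudogene Gpr137b-ps had 29, 9 and 14 counts while its parent Gpr137b had 0, and reads of these similar copies could have been divided by the counting.

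Receptors with a largely neural or constitutive role were mostly absent. Of 35 genes of this class 1 was detected, where 31.1% of all genes in the table were. Another 3 reached 1 CPM in some libraries and 28 had 0 counts, against 44.5% of all genes at 0 counts. The detected gene was Gpr19, an orphan receptor, at 3.93, 4.61 and 3.91 CPM in mice 1, 2 and 3, with a coefficient of variation of 9.57%. It shares 270 exonic bases with the opposite-strand transcript 2810454H06Rik, which had 271, 202 and 186 counts. Gpr160 had 0, 2 and 64 counts, Gpr146 had 0, 8 and 33, and Gpr153 had 0, 23 and 1. Of the 3 class C members, Gpr179, a gene of retinal bipolar cells, had 0, 80 and 0 counts and the others had none. None of the 9 metabolite and peptide receptors reached 1 CPM in a library. Among them Gpr15, which guides lymphocytes to the colon, and Gpr84, the medium-chain fatty acid receptor of myeloid cells, had 0 counts, and Gpr25 had 2, 0 and 5.

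The order of the detected members per kb was clear at the top and not below. Gpr65 (857), Gpr171 (117 ± 11.1) and Gpr132 (47.1 ± 13.5 CPM per kb, SD, n = 3) did not overlap, whereas Gpr132 and Gpr34 (40.3 ± 7.97) did, Gpr132 being higher in 2 of 3 mice. Gpr34 lay above Adgre5 (11.0 ± 0.359) in all mice without overlap, by 3.63-fold as a geometric mean. Adgre5 and Gpr180 (9.52 ± 2.88) overlapped, as did Gpr180 and Gpr108 (8.53 ± 7.68), and Gpr108 and Gpr89 (4.58 ± 2.39). Gpr89 lay above Gpr19 (1.42 ± 0.136) without overlap. Gpr19, Gpr35, Gpr107 and Adgrl1 each overlapped with the next.

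**Figure D3:**
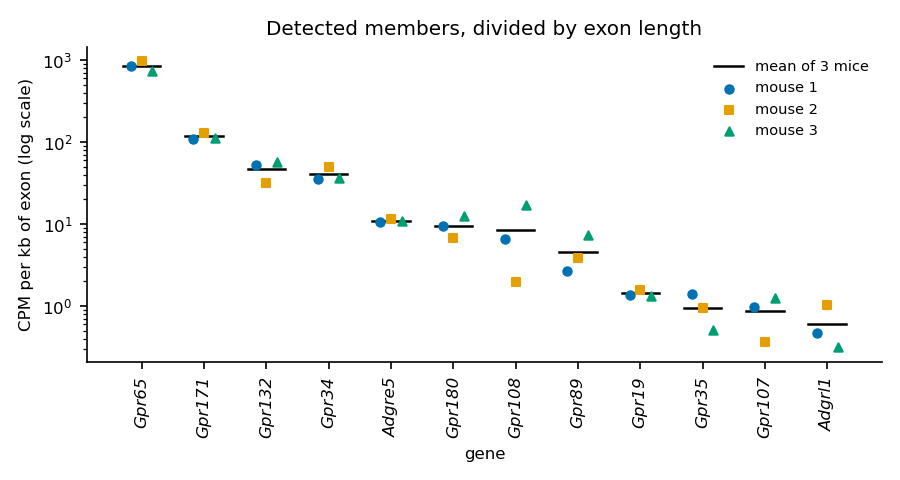
CPM per kb of exon on a log scale for 12 of the 13 detected members, ordered by their mean, with 1 symbol per mouse and a bar at the mean. Gpr65 lies above Gpr171 in every mouse by a geometric mean of 7.28-fold, and the spread between mice is widest for Gpr108.

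The comparison between mice asked whether any member varied more than genes of its abundance. edgeR's quasi-likelihood fit was used, with the ratio of each gene's quasi-dispersion to the abundance trend tested by a one-sided F test for larger values and adjusted by Benjamini-Hochberg over all genes tested. Of the 102 members 16 had enough counts in every library to be tested. Of these 0 passed an adjusted p of 0.05, where 0.207% of all 9175 genes tested did. The filter left out in advance members near 0 counts in a mouse, so the 0 of 16 covers the more even members only. Among the 16, Gpr108 alone had an unadjusted p below 0.05 (adjusted p = 0.977, edgeR), where 4.37% of all genes tested did. Its dispersion was 7.38 times the trend, and no adjusted p of Gpr108 fell below 0.05 under any alternative fitted in edgeR or limma. limma and the dispersion outliers of DESeq2 also called 0 of the 16. Without a filter on low counts 41 members could be tested, of which 0 passed the adjusted p and 4, or 9.76%, had an unadjusted p below 0.05, against 3.74% of all genes tested in that setting. In the filtered test the next in order of p were Adgra3, Gpr132 and Gpr89, at 2.33, 2.18 and 1.92 times the trend. At the other end Adgre5 and Gpr19 lay at 0.0121 and 0.0248 times the trend. The median ratio was 1.02 for the 16 members and 0.749 for all genes tested.

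The most uneven members were left out of the filtered test, which asked for counts in every library. Of 30 members with at least 20 counts in a library, 14 had at most 1 count in another, or 46.7%, against 15.6% of all genes with that many counts. Among genes whose highest library held 20 to 250 counts the figures were 14 of 20 members and 36% of all genes. The 14 were Adgrf1, Adgrf5, Adgrl2, Adgrv1, Gpr18, Gpr20, Gpr55, Gpr137, Gpr137c, Gpr146, Gpr153, Gpr155, Gpr160 and Gpr179. Their highest count was in mouse 3, the deepest library, for 9 of them, in mouse 2 for 3 and in mouse 1 for 2. This way of counting and its limits were chosen after the values had been seen.

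The signalling genes downstream of these receptors were present as follows. Of 77 such genes in 6 lists 31 were detected, or 40.3%, against 31.1% of all genes. Among the alpha subunits 7 of 16 were detected, led per kb by Gna13 (71.6 ± 11.1 CPM per kb, SD, n = 3), of the G12/13 class, and Gnai3 (67.8 ± 8.22), of the Gi class. Gnas, the Gs subunit that Gpr65 uses, had 394, 367 and 718 CPM in mice 1, 2 and 3, or 44.1 ± 17.5 per kb. By CPM Gnas lay above Gnai3 (243, 191 and 229) in every mouse and above Gna13 (501, 500 and 377) in mouse 3 only. Its place below Gnai3 per kb thus depended on the division by summed exon length. Of the beta subunits 2 of 5 were detected, Gnb1 (31.8 ± 9.68) and Gnb2 (11.0 ± 3.12), and of the gamma subunits 5 of 12, led by Gng10 (217 ± 31.7) and Gngt2 (69.5 ± 8.73).

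Genes that end receptor signalling differed widely in level. Of 8 arrestin and receptor kinase genes 6 were detected, with Arrb2 (6.34 ± 2.46 CPM per kb, SD, n = 3) and Grk6 (4.88 ± 2.33) highest. Of 20 RGS genes, whose products speed the shutdown of G alpha subunits, 6 were detected and 6 had 0 counts. Rgs2 reached 6285, 4943 and 4678 CPM in mice 1, 2 and 3, or 1462 ± 237 per kb, and Rgs1 2779, 2468 and 1942 CPM, or 345 ± 60.9 per kb. Rgs2 was thus higher per kb than Gpr65 in these libraries. Of the 16 adhesion receptor partners 5 were detected, led by Cd81 (187 ± 50.1), which associates with GPR56, and Cd9 (43.7 ± 15.4). None of the signalling genes tested passed the variability test in edgeR, and Gnai2 had the lowest unadjusted p among them, at 4.37 times the trend (adjusted p = 0.977, edgeR).

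**Figure D4:**
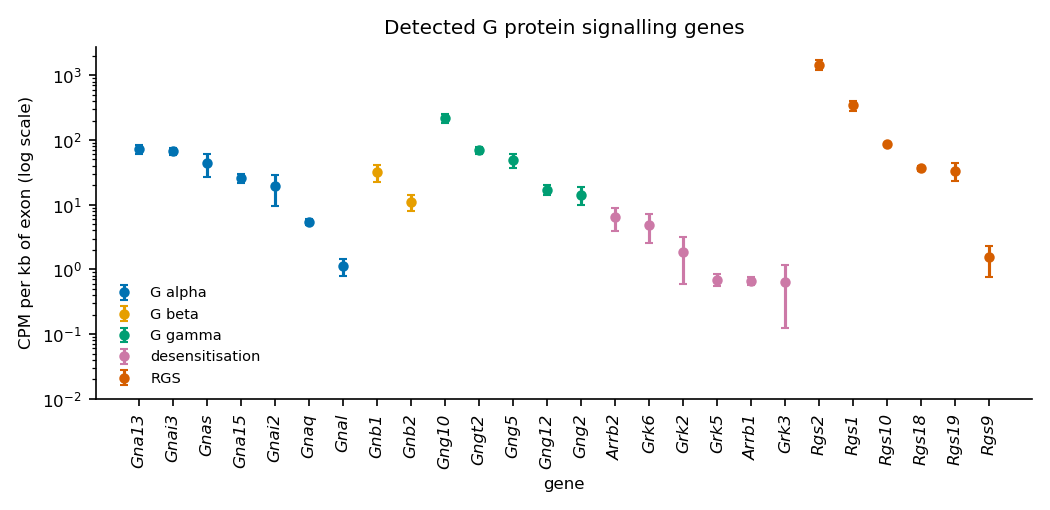
Mean CPM per kb of exon on a log scale for the detected G protein signalling genes, coloured by list, with bars of 1 SD over 3 mice. Rgs2 and Rgs1 stand highest, at 1462 and 345, and the receptor kinases and arrestins are the lowest group.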

How the data were processed

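RNA from sorted ILC2s of 3 mice was sequenced after SMARTer ultra-low-input amplification, per the labels' protocols, which does not mark strand. The authors deposited raw read counts per Entrez gene ID without normalization. Per the submitters' processing notes, CASAVA 1.8.2, STAR 2.3.0 and mm10 were used. The counting program, annotation and treatment of multi-mapping reads are, in the sources used here, not given.

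IDs were matched to RefSeq symbols of GRCm38.p6, the assembly of mm10 (25275 of 27179), and the 1904 others stayed in library sizes and tests. Exon lengths came from GENCODE M21 and were found for all members but Gpr52. Upstream windows were found for 72. CPM used TMM factors of edgeR 4.0.16 (R 4.3.3) and log values are log2(CPM + 0.5). Between-mouse variability was tested in edgeR after filterByExpr (minimum count 10) with an intercept only, and the script was tested on simulated data. limma 3.58.1 and DESeq2 1.42.0 were alternatives. Each pair of libraries had a common coefficient of variation of 44.8% to 46.4% beyond counting noise, and all 3 were counted as separate. P-values measure the spread between libraries, which also holds sorting and amplification. The rule for named genes took every member at 1 CPM in a library, the 5 lowest p of the variability test and 10 members of known role. Some of these genes are not reported here. Members and lists were chosen with earlier results of these data known.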

Additional observations from a re-analysis of the deposited data

How the results depend on the processing

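No paired analysis was possible because all 3 libraries belong to 1 group. Of 49 comparisons of a main count or share with an alternative, 44 stayed within 1.5 times the count or 1 SD of the share. The other 5 were as follows. With 1 CPM required in at least 1 library, 30 members were detected in place of 13. A robust prior called 0 of all genes in place of 19, with 388 at an unadjusted p below 0.05, and the cause was not tested. Without mouse 1, 31 of all genes were called. Leaving out genes of intracellular or not canonical products raised the share of the 5 highest members from 94.7% to 98.1%, because their counts left the denominator. Division by exon length lowered the share of adhesion receptors from 2.72% to 1.44%. Without each mouse in turn, 13 to 16 members were detected, 63 to 65 had 0 counts, 14 to 31 of all genes were called variable and 33 to 35 signalling genes were detected. The share of the 5 highest members was then 93.9% to 96.1% and that of adhesion receptors 2.56% to 2.96%. A mean of 3 shares cannot move by 1 SD when 1 library is left out. A share within a library also does not depend on its size factor, so these comparisons of shares were fixed in advance. The count of members called variable was 0 under each alternative, which includes the robust prior that called 0 of all genes. Of 259 levels of 37 named members under alternatives, 235 stayed within 1 SD, and the 24 others arose with a pseudocount of 0.1 or 1. Most of the 235 could not have moved. Leaving out 1 of 3 libraries cannot shift a mean by 1 SD. The normalisations had library sizes with the same geometric mean, which leaves mean log2 levels nearly unchanged. The pseudocount could move a level, and did so for 15 of 37 members at 0.1 and 9 of 37 at 1. Depth limits statements on the 61 members at 0, and with at most 3 counts per library 69 members fall in that range.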
